A study of Homo sapiens with 6 samples.

Results

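The oncofetal genes examined here are 9 protein-coding genes that are active in fetal liver, are low or silent in the adult organ and are often switched on again in hepatocellular carcinoma. They are GPC3, PEG10, IGF2BP1, IGF2BP2, IGF2BP3, LIN28B, HMGA2, SALL4 and DLK1, chosen by name among the 58735 genes of the table, in which each of the 9 has a row. RNA was sequenced from 6 libraries of Hep-G2, an established human liver cancer line that the labels describe as hepatocytes, to ask which transcripts change when calmegin, the product of CLGN and a chaperone of the endoplasmic reticulum, is depleted. The 3 sh-NC libraries came from cells labelled wild type with a control hairpin. The 3 sh-CLGN libraries came from cells labelled as a CLGN knock-down with a hairpin against CLGN. All 6 carry the same batch label, 0DAY. Per the study's methods, hairpins were delivered by lentivirus, 1 sequence per group, and cells were selected with puromycin, so an effect of that hairpin sequence or of the selected culture cannot be told apart from the loss of CLGN. Nothing states that the libraries of a group came from separate cultures, so p-values measure only the spread between these libraries.

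Several of these genes are linked by a family of small RNAs. LIN28B blocks the maturation of the let-7 microRNAs, which are scarce in the embryo and abundant in adult tissue, and let-7 in turn represses LIN28B, HMGA2 and the IGF2BP genes through sites in their 3′ untranslated regions (3′ UTRs). The IGF2BP proteins bind messenger RNAs, many of them marked by N6-methyladenosine, and stabilise them. The other members act elsewhere: GPC3 is a heparan sulfate proteoglycan of the cell surface and a marker of liver cancer, SALL4 is a zinc finger transcription factor of stem cells, and DLK1 and PEG10 are imprinted genes expressed from the paternal copy.

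The let-7 family and its matches are shown because they connect 6 of the 9 genes. The family has 9 mature names from 12 loci in RefSeq, and all share 1 seed, bases 2 to 8, here in capitals:
hsa-let-7a-5p: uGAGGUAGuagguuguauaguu
hsa-let-7d-5p: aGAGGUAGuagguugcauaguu
hsa-miR-98-5p: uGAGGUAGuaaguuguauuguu
Mature let-7 was not measured in these libraries.

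The heptamer complementary to that seed, CTACCTC, was searched on the sense strand of the 3′ UTR of each gene's principal transcript (APPRIS) in GENCODE 29. LIN28B, IGF2BP1 and HMGA2 each held 4 matches, IGF2BP2, IGF2BP3 and SALL4 held 1 each, and GPC3, PEG10 and DLK1 held 0. Of the 10968 3′ UTRs of tested genes, 9.87% held at least 1 match and 12 genes held 4 or more. Longer 3′ UTRs held a match more often. Among those of like length to LIN28B, IGF2BP1 and HMGA2 the share was 23.8%, 31.7% and 15.1%. For IGF2BP2, IGF2BP3 and SALL4 it was 11.85%, 12.4% and 12.9%. The isoforms of HMGA2 differ, since its longest annotated 3′ UTR, of 7421 bases, belongs to another transcript and held 0 matches. The principal transcript was chosen after that had been seen. The first match of each of the 6 genes is given 5′ to 3′ on the transcript, with the heptamer in capitals:
HMGA2: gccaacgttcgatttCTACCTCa
LIN28B: acccggttgcaaagtCTACCTCa
IGF2BP1: tgtgtgcgaagtaaaCTACCTCa
IGF2BP2: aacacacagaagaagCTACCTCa
IGF2BP3: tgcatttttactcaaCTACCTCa
SALL4: aaagctttaatttatCTACCTCa
On GRCh38 these stretches lie at chr12:65963298-65963320 (plus strand, HMGA2), chr6:105078812-105078834 (plus, LIN28B), chr17:49051061-49051083 (plus, IGF2BP1), chr3:185644220-185644242 (minus, IGF2BP2), chr7:23311795-23311817 (minus, IGF2BP3) and chr20:51782923-51782945 (minus, SALL4). Each is in the last exon of its transcript. In all 6 the heptamer is followed by an A, and this holds for 9 of the 15 matches in these genes. A match describes letters and does not show that let-7 binds there.

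The unit is FPKM, in which the fragments of a gene are divided by its length and by a library size, here set by the authors. Whole reads could be recovered from these values, and the libraries held 14955816 to 16244639 of them. The authors' library size was smaller than the read total for sh-NC (0.933 to 0.953 of it) and larger for sh-CLGN (1.07 to 1.08), so every sh-CLGN value is lower against sh-NC than plain read totals would make it. Scaling by read totals raised the median log2 change over all genes by 0.16 and TPM by 0.11. Several falls described here depend on this choice. CLGN itself was at 24.1, 21.0 and 26.1 FPKM in sh-NC and 9.48, 8.88 and 8.60 FPKM in sh-CLGN, a log2 change of -1.31 (SE 0.081, limma adjusted p = 8.35e-06), which left 37.8% of the control mean. The defining hepatocyte genes were abundant in both groups, with the FPKM of 8 markers summing to 6619 to 6850 for sh-NC and 6678 to 7095 for sh-CLGN. Of the 8, 2 were higher and 5 lower, where 26.7% and 39.0% of all genes tested were. Mitochondrial transcripts took 3.25% to 4.02% of sh-NC reads and 5.49% to 5.80% of sh-CLGN reads.

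DLK1 and SALL4 rose, IGF2BP3 rose slightly, and the other 6 genes fell slightly on the deposited scale. The changes were compared with limma on log2(FPKM + 1) over the 13074 genes that reached 1 FPKM in 3 or more libraries, and a gene passed at an adjusted p of at most 0.05. By that test 3 of the 9 were higher in sh-CLGN, against 26.7% of all genes tested, and 6 were lower, against 39.0%. The balance over all genes turned with the scaling, from 3496 higher and 5102 lower to 4956 and 3421 with read totals and 4285 and 3923 with TPM. In either direction 65.8% of all genes passed, so passing the test was common in this comparison. The libraries of the 2 groups did not overlap for any of the 9, which was also the case for 70.2% of all genes tested (28.7% higher and 41.5% lower in sh-CLGN). With the further requirement of an absolute log2 change of at least 1, only DLK1 among the 9 passed, against 3.09% of all genes higher and 3.19% lower. The median log2 change was -0.18 over the 9 genes and -0.08 over all genes. The expression filter was met in both groups by 8 members, while DLK1 passed it only through sh-CLGN.

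The order of the levels was the same in all 6 libraries. GPC3 was highest, followed by PEG10, IGF2BP1, IGF2BP2, LIN28B, HMGA2, IGF2BP3, SALL4 and DLK1. In each of the 8 pairs of neighbours the ranges of the libraries were separate within both groups. The closest pair by ratio was IGF2BP2 and LIN28B in sh-NC, where the lowest IGF2BP2 value was 31.2 and the highest LIN28B value 27.6 FPKM. In sh-NC GPC3 ranked 67th and DLK1 12998th among the 13074 tested genes. The low rank of DLK1 goes with its meeting the expression filter only through sh-CLGN. SALL4, the next lowest of the 9, had rank 10301.

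**Figure D1:**
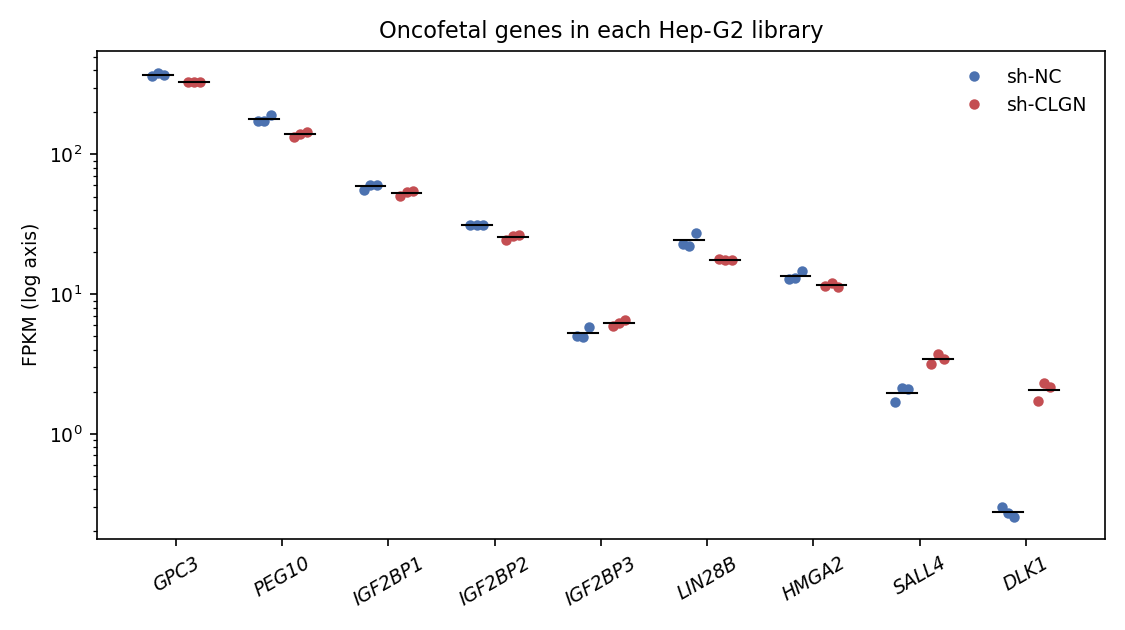
Expression of the 9 oncofetal genes in FPKM on a log axis, with 1 point per library, sh-NC in blue and sh-CLGN in red, and a black line at each group mean (n = 3). DLK1 stands out, at 0.255 to 0.297 FPKM in sh-NC and 1.72 to 2.31 FPKM in sh-CLGN, while GPC3 stays between 328 and 384 FPKM in all 6 libraries.

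DLK1 encodes a transmembrane protein related to the Notch ligands that lacks their usual receptor-binding domain, and marks hepatoblasts in the fetal liver. The gene (ENSG00000185559) lies on chromosome 14 at 100725705 to 100738224, plus strand. It was near silent in sh-NC, at 0.297, 0.271 and 0.255 FPKM from 21 to 22 reads per library. In sh-CLGN it stood at 1.72, 2.31 and 2.17 FPKM from 155 to 201 reads. The lowest sh-CLGN library was thus far above the highest sh-NC library. Mean expression was 0.274 ± 0.0209 FPKM in sh-NC and 2.07 ± 0.307 FPKM in sh-CLGN (SD, n = 3), a ratio of 7.53. The log2 change on the scale with 1 FPKM added was 1.26 (SE 0.10, limma adjusted p = 3.02e-05). That scale compresses low values, and voom, a count-based fit of limma, on the recovered reads gave 2.88. On the log2(FPKM + 1) scale 2.68% of the genes tested changed by as much or more. DLK1 met the expression filter only through sh-CLGN, so its rise and its being tested are tied. The share therefore does not show how unusual the rise is. In sh-CLGN DLK1 remained the lowest of the 9 genes.

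The neighbours of DLK1 in its imprinted cluster had few or 0 reads. MEG3 and MEG8, long non-coding RNAs of the maternal copy, had 0 reads in every library, so that each level was below that of 3 reads. RTL1, a retrotransposon-derived gene of the paternal copy, had 0 to 2 reads. DIO3, which encodes a deiodinase that inactivates thyroid hormone, had 2 to 5 reads in each sh-NC library and 8 to 14 in each sh-CLGN library, too few for the filter. Voom on the recovered reads gave DIO3 a log2 change of 1.63 (voom adjusted p = 0.0219). DLK1 was the 1 gene of these 5 that met the expression filter.

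Markers of fibroblasts were higher in the same libraries as DLK1. The FPKM of 8 such markers summed to 7.17 to 8.51 for sh-NC and 48.5 to 49.9 for sh-CLGN, most of it from COL1A2, a chain of type I collagen. All 5 that could be tested were higher (COL1A1, COL1A2, COL3A1, LUM and PDGFRB), of which COL1A1, COL3A1 and LUM met the expression filter only through sh-CLGN, while DCN and THY1 had 0 or 1 read in each library. Of all genes tested, 26.7% were higher. Endothelial markers summed to 3.36 to 3.67 FPKM for sh-NC and 2.38 to 2.65 for sh-CLGN, with KDR at 0 reads in every library. Immune markers summed to 68.7 to 76.3 and 60.8 to 67.9 FPKM, nearly all of it LYZ, and PTPRC, CD3E and CD68 had at most 4 reads. The part of these genes in the rise of DLK1 was not tested, and in bulk RNA more cells of a kind and more RNA per cell cannot be told apart.

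SALL4 was the other gene with a clear rise. It encodes a transcription factor that recruits the NuRD chromatin complex and is silenced in the liver after birth, and it lies on chromosome 20 at 51782331 to 51802520, minus strand (ENSG00000101115). Its values were 1.68, 2.11 and 2.09 FPKM in sh-NC, from 135 to 187 reads, and 3.18, 3.75 and 3.43 FPKM in sh-CLGN, from 311 to 355 reads. The groups were well apart. The mean rose from 1.96 ± 0.246 to 3.45 ± 0.288 FPKM (SD, n = 3), a ratio of 1.76 and a log2 change of 0.59 (SE 0.089, limma adjusted p = 0.000646). Of all genes tested, 24.4% changed by at least as much.

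The other SALL genes went in different directions. SALL1 was at 5.79 to 6.74 FPKM in sh-NC and lower in sh-CLGN, at 3.81 to 4.10 FPKM (limma adjusted p = 0.000297). SALL2 was at 5.48 to 5.84 FPKM in sh-NC and higher in sh-CLGN, at 6.99 to 7.23 FPKM (limma adjusted p = 0.00175), and SALL3 had at most 2 reads. Of the FPKM summed over SALL1, SALL2 and SALL4, SALL4 made up 12.04%, 15.03% and 15.7% in the sh-NC libraries. Its share was 22.1%, 25.3% and 23.7% in the sh-CLGN libraries, all above sh-NC. The mean share was 14.2% ± 1.94 against 23.7% ± 1.58 (SD, n = 3). A share within a library does not depend on library size. A two-sided exact permutation test gave p = 0.1, the smallest value 3 against 3 libraries allow. NANOG and SOX2, the core pluripotency factors, had 0 reads in every library, and POU5F1 had at most 2.

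The 3 IGF2BP genes did not move as a family. IGF2BP1 (ENSG00000159217; chromosome 17, 48997412 to 49055650, plus strand) is the most abundant of them, with 55.8, 60.7 and 60.8 FPKM in sh-NC and 50.1, 53.5 and 54.7 FPKM in sh-CLGN. Its mean went from 59.1 ± 2.86 to 52.8 ± 2.36 FPKM (SD, n = 3), a log2 change of -0.16 (SE 0.056, limma adjusted p = 0.0336). The highest sh-CLGN library lay just below the lowest sh-NC library. The change turned to 0.03 with read totals and to 0.13 with quantile normalization, and the call was lost without sh-NC 2, sh-NC 3, sh-CLGN 1 or sh-CLGN 2, with log2 changes of -0.14, -0.14, -0.13 and -0.17. It was also lost with TPM (-0.04), after GC correction (-0.10), with no filter (limma adjusted p = 0.0698) and with no intensity trend (limma adjusted p = 0.0589).

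IGF2BP2 fell more evenly. The gene (ENSG00000073792) lies on chromosome 3 at 185643739 to 185825056, minus strand, and is also known from genetic studies of type 2 diabetes. It was at 31.2, 31.4 and 31.5 FPKM in sh-NC and at 24.4, 25.9 and 26.7 FPKM in sh-CLGN. The sh-NC libraries were nearly identical, and all 3 sh-CLGN libraries were below them. Mean expression went from 31.4 ± 0.133 to 25.7 ± 1.13 FPKM (SD, n = 3), a log2 change of -0.28 (SE 0.049, limma adjusted p = 0.00132). With read totals it was -0.09 (limma adjusted p = 0.130) and with quantile normalization -0.01, so the call was lost under both, while TPM kept it at -0.16 (limma adjusted p = 0.0395).

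IGF2BP3 went the other way. It is an oncofetal RNA-binding protein found in many carcinomas, and its gene lies on chromosome 7 at 23310209 to 23470467, minus strand (ENSG00000136231). Its values were 4.99, 4.95 and 5.83 FPKM in sh-NC, from 592 to 768 reads, and 5.95, 6.16 and 6.49 FPKM in sh-CLGN, from 859 to 892 reads. The highest sh-NC library, replicate 3, lay just under the lowest sh-CLGN library. The mean rose from 5.26 ± 0.499 to 6.20 ± 0.273 FPKM (SD, n = 3), a log2 change of 0.21 (SE 0.073, limma adjusted p = 0.0364). Leaving out any 1 library other than sh-NC 3 ended the call, at log2 changes of 0.17 to 0.23, and a correction for GC content gave 0.09 (limma adjusted p = 0.179). The call was also lost with no filter (limma adjusted p = 0.0813) or a mean filter of 0.1 FPKM (limma adjusted p = 0.0575), which test more genes. With read totals the change was 0.37 (limma adjusted p = 0.00300). MALSU1, on the opposite strand of the same region, drew 575 to 740 reads from each sh-NC library and 764 to 858 from each sh-CLGN library, and since the strandedness of counting is not stated, reads of the pair may be mixed.

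The balance within the family is free of the scaling of libraries. IGF2BP3 made up 5.42%, 5.10% and 5.94% of the summed FPKM of the 3 genes in the sh-NC libraries and 7.39%, 7.21% and 7.39% in the sh-CLGN libraries. That is 5.49% ± 0.424 against 7.33% ± 0.103 (SD, n = 3). IGF2BP2 went from 32.8% ± 1.00 to 30.3% ± 0.0625. Neither share overlapped between the groups, and each gave p = 0.1 in a two-sided exact permutation test, the smallest possible. IGF2BP1 made up 61.7% ± 0.971 and 62.3% ± 0.165, with overlapping libraries and p = 0.5 in the same exact test. The 3 genes summed to 95.7 ± 3.27 FPKM in sh-NC and 84.6 ± 3.75 FPKM in sh-CLGN. These shares were chosen after their values had been seen.

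**Figure D2:**
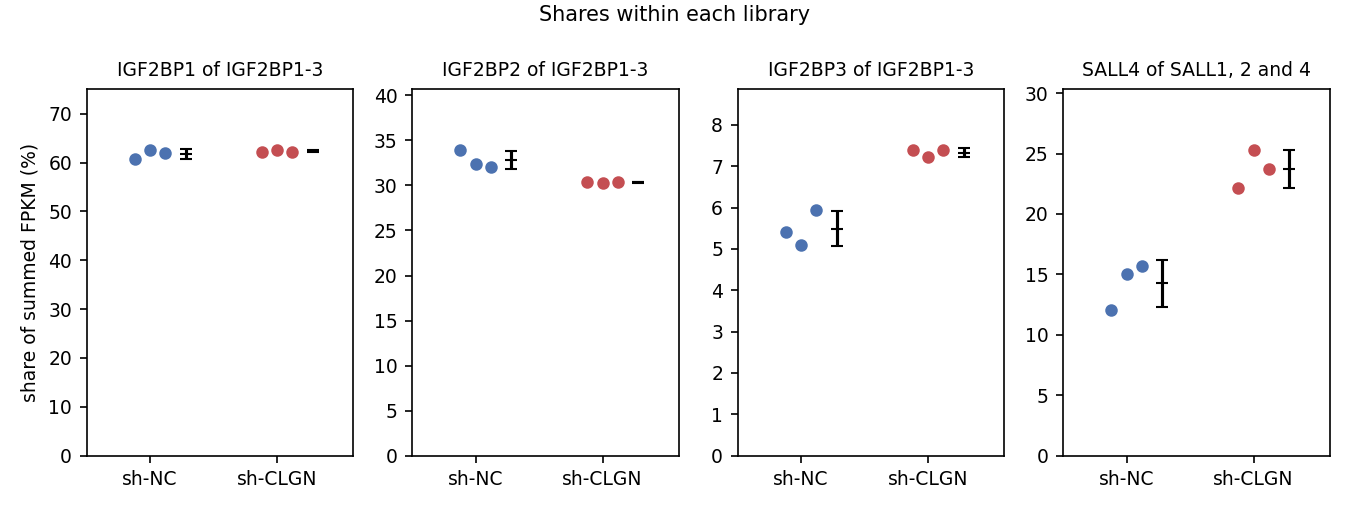
Share of summed FPKM in percent, from 0 on each axis, for each IGF2BP gene among the 3 and for SALL4 among SALL1, SALL2 and SALL4. Each point is a library (sh-NC blue, sh-CLGN red) and the black mark is the mean ± SD (n = 3). IGF2BP3 at 5.10% to 5.94% and SALL4 at 12.04% to 15.7% in sh-NC lie below all sh-CLGN libraries, while IGF2BP1 overlaps.

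LIN28B showed the strongest fall among the 9 genes on the deposited scale. It encodes the RNA-binding protein that blocks let-7 maturation and lies on chromosome 6 at 104936616 to 105083332, plus strand (ENSG00000187772). It was at 23.0, 22.2 and 27.6 FPKM in sh-NC and at 17.7, 17.7 and 17.5 FPKM in sh-CLGN. The sh-CLGN libraries were nearly identical, and sh-NC 3 was the highest of all. Mean expression dropped from 24.3 ± 2.89 to 17.7 ± 0.103 FPKM (SD, n = 3), to 72.7% of the control, with a log2 change of -0.43 (SE 0.079, limma adjusted p = 0.00173). Without sh-NC 3 the change was -0.34. It was -0.25 with read totals (limma adjusted p = 0.0310), -0.67 after GC correction (limma adjusted p = 1.17e-05) and -0.20 with quantile normalization, where the call was lost (limma adjusted p = 0.0781). Among all genes, 38.7% changed by at least as much.

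HMGA2, an architectural chromatin protein and a classic let-7 target, lies on chromosome 12 at 65824131 to 65966295, plus strand (ENSG00000149948). It was at 12.8, 13.0 and 14.7 FPKM in sh-NC and 11.4, 11.9 and 11.3 FPKM in sh-CLGN. The groups were close without overlapping. The mean went from 13.5 ± 1.06 to 11.6 ± 0.317 FPKM (SD, n = 3), a log2 change of -0.21 (SE 0.064, limma adjusted p = 0.0216). As RPM, reads scaled only by each library's read total, HMGA2 was at 184 to 216 for sh-NC and 187 to 199 for sh-CLGN, which overlap, and the log2 change was then -0.03 (limma adjusted p = 0.763). TPM gave -0.09 (limma adjusted p = 0.341). The call was also lost without sh-CLGN 1 (-0.20) or sh-CLGN 3 (-0.19). The ratio of LIN28B to HMGA2, free of scaling, was 1.79 ± 0.0802 for sh-NC and 1.53 ± 0.0395 for sh-CLGN (SD, n = 3; two-sided exact permutation test, p = 0.1, the smallest possible).

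Few reads were assigned to antisense genes at the loci of the members. AC090673.1 had 1 to 5 reads in each sh-NC library and 19 to 31 in each sh-CLGN library, and RPSAP52, a transcribed pseudogene on the opposite strand, 4 to 10 and 10 to 15. HMGA2 itself had 2752 to 3510 reads per library, and without a stated strandedness these reads cannot be told apart from its own. The antisense transcript of IGF2BP2, IGF2BP2-AS1, had 0 to 1 reads in each sh-NC library and 7 to 9 in each sh-CLGN library, and LIN28B-AS1 had 1 to 8 reads across all 6 libraries.

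GPC3 was the most abundant of the 9 genes, and its fall was present on the deposited scale but not with read totals. The gene lies on chromosome X at 133535745 to 133985895, minus strand (ENSG00000147257). It was at 367, 384 and 369 FPKM in sh-NC and 331, 328 and 328 FPKM in sh-CLGN. The mean went from 374 ± 8.99 to 329 ± 1.49 FPKM (SD, n = 3), a log2 change of -0.18 (SE 0.044, limma adjusted p = 0.00723). As RPM the same libraries gave 929, 978 and 954 for sh-NC and 970.4, 962 and 953 for sh-CLGN. On that scale the groups overlapped and the log2 change was 0.01 (limma adjusted p = 0.817), with 0.12 under quantile normalization and -0.06 with TPM, neither of which passed. GPC3 made up 98.2% ± 0.0625 of the summed glypican FPKM of sh-NC and 96.5% ± 0.0846 of that of sh-CLGN (SD, n = 3).

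PEG10, a retrotransposon-derived gene whose product can form virus-like capsids, lies on chromosome 7 at 94656325 to 94669695, plus strand (ENSG00000242265). Its values were 173, 174 and 192 FPKM in sh-NC and 134, 141 and 145 FPKM in sh-CLGN. All sh-CLGN libraries were lower. Mean expression dropped from 179.9 ± 11.0 to 140.1 ± 5.46 FPKM (SD, n = 3), a log2 change of -0.36 (SE 0.058, limma adjusted p = 0.000969). It kept its call with read totals, at -0.16 (limma adjusted p = 0.0449), and lost it with quantile normalization, at -0.04. SGCE, its imprinted neighbour on the opposite strand, had a log2 change of -0.16 that did not pass, and the ratio of PEG10 to SGCE overlapped between groups at 47.3 ± 2.28 and 42.4 ± 3.56 (SD, n = 3; two-sided exact permutation test, p = 0.2).

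**Figure D3:**
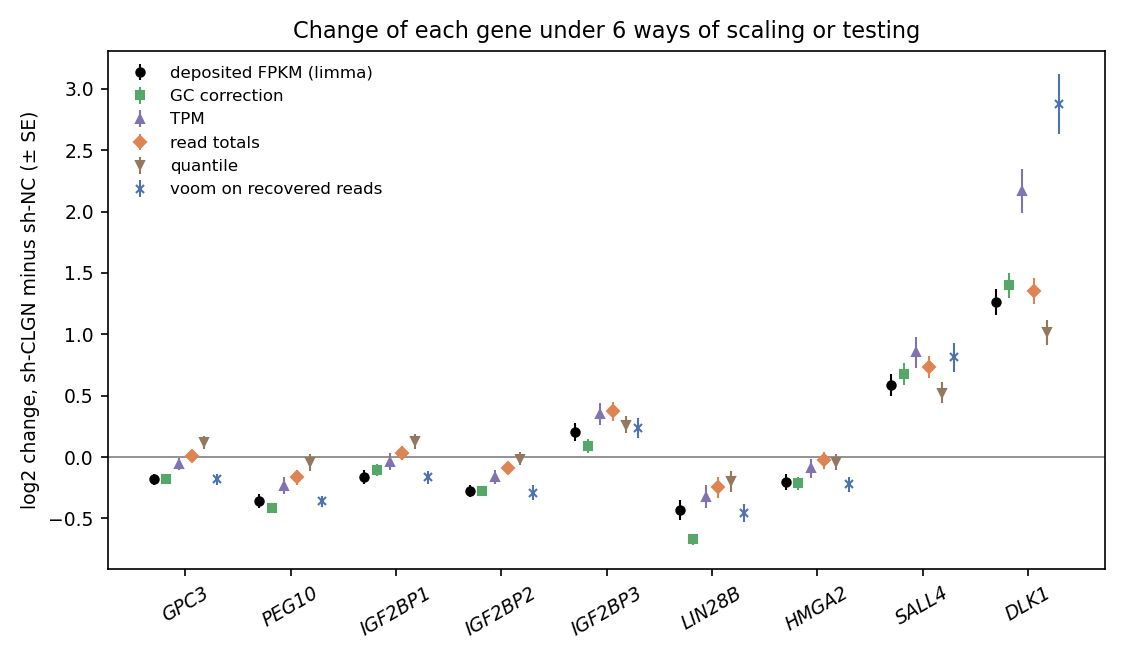
Log2 change, sh-CLGN minus sh-NC, of each gene with its SE under 6 ways of scaling or testing the same 6 libraries. DLK1 and SALL4 stay above 0.52 and IGF2BP3 above 0 in all 6, while GPC3 and IGF2BP1 lie below 0 on deposited FPKM (-0.18 and -0.16) and above 0 with read totals (0.01 and 0.03) and quantile normalization (0.12 and 0.13).

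The genes around LIN28B were examined next, with 11 of 15 regulators of let-7 processing tested. Of these, 3 were higher, 2 lower and 6 did not pass, with a median log2 change of 0.03. That is 27.3% higher and 18.2% lower, against 26.7% and 39.0% of all genes tested. TUT7, a uridylyltransferase that tags let-7 precursors, was at 2.72 to 3.65 FPKM in sh-NC and 4.78 to 5.04 FPKM in sh-CLGN (log2 change 0.52, limma adjusted p = 0.00118), which GC correction lowered to 0.26. Its relative TUT4 was higher by 0.27 (limma adjusted p = 0.00963), which became -0.0021 after GC correction. KHSRP, which promotes let-7 maturation, fell by 0.40 (limma adjusted p = 0.00127), a call that was kept with read totals at -0.21 and lost with quantile normalization at -0.08 (limma adjusted p = 0.295). TRIM71, a let-7 target and RNA-binding partner in stem cells, stood at 22.4 to 25.6 and 24.0 to 25.2 FPKM with overlapping libraries. LIN28A, the paralog of LIN28B, had 0 to 7 reads, so that LIN28B carried nearly all LIN28 signal in this line.

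Of 17 let-7 target genes other than the 9 members, 16 were tested, and 12 were lower, 4 higher and 0 did not pass. Thus 75% were lower and 25% higher, against 39.0% and 26.7% of all genes tested. The median log2 change was -0.56, against -0.08 over all genes. PLAGL2, a zinc finger factor at 38.4 to 42.2 FPKM in sh-NC and 13.96 to 15.5 FPKM in sh-CLGN, fell by 1.36 on the log2 scale (limma adjusted p = 2.44e-06). NR6A1, an orphan nuclear receptor of the embryo, fell by 1.33, HMGA1, the sister gene of HMGA2, by 1.02 and CDC25A, a cell cycle phosphatase, by 0.75. With read totals 10 of the 16 were lower and 4 higher.

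Matches of the let-7 heptamer alone went with a mixed picture. Of the 12 genes with at least 4 matches, members included, 9 were lower, 2 higher and 1 (TRIM71) did not pass. With read totals, 6 were lower and 3 higher. Among all genes without a match 43.6% were lower and 25.1% higher, and among the 957 with 1 match 43.1% and 26.0%. Of the 100 with 2 matches 39% were lower and 28% higher. Of the 26 with 3 or more, 57.7% were lower and 11.5% higher. Of the 6 members with a match, LIN28B, IGF2BP1, IGF2BP2 and HMGA2 were lower and IGF2BP3 and SALL4 higher.

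The hairpin itself has short matches in some members. A guide complementary to the stated sh-CLGN target would pair with TACCACA at its positions 2 to 8 and with ATACCAC at positions 3 to 9, counted from its 5′ end. Positions 2 to 8 are those given above as the seed of let-7. ATACCAC occurred in the 3′ UTRs of LIN28B, IGF2BP1, IGF2BP2 and PEG10 once each and of HMGA2 at 2 places. On the deposited scale these are 5 of the 6 lower members and 0 of the 3 higher ones. With read totals 2 members were lower, and with quantile normalization 0. The longest annotated 3′ UTR of HMGA2 held 0 matches of ATACCAC. This heptamer was found in 6.33% of all 10968 3′ UTRs, and 51.7% of the genes holding it were lower, against 43.0% of those without it. TACCACA occurred only in PEG10 among the 9, and in 8.54% of all, where 45.6% of the genes holding it were lower, against 43.3% of those without it. The annotated 3′ UTR of PEG10 begins after its first reading frame and includes coding sequence of the second. Long 3′ UTRs hold any heptamer more often, and among those of like length to LIN28B, IGF2BP1, IGF2BP2, HMGA2 and PEG10 the share with ATACCAC was 16.1%, 23.1%, 5.49%, 12.01% and 18.4%. The part of these matches in the falls was not tested.

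A further list held proteins that write, erase or read N6-methyladenosine or work with the IGF2BP proteins. Of its 20 genes 19 were tested, and 3 were higher, 8 lower and 8 did not pass (median -0.11). The writers METTL3 and METTL14 went apart, at log2 changes of -0.74 (limma adjusted p = 3.69e-05) and 0.50 (limma adjusted p = 0.000779). The shares were 15.8% higher and 42.1% lower, the latter near the 39.0% of all genes tested, of which 26.7% were higher. DHX9, an RNA helicase, fell by 0.69 (limma adjusted p = 1.22e-05), ALKBH5, an eraser of the mark, by 0.64 and ELAVL1, which stabilises messenger RNAs together with IGF2BP proteins, by 0.61. IGF2, whose messenger RNA gave the IGF2BP family its name, was at 21.5, 21.9 and 13.0 FPKM in sh-NC and 5.22, 6.48 and 9.06 FPKM in sh-CLGN. The sh-NC 3 library was well below the other two of its group. The log2 change of IGF2 was -1.31 (SE 0.23, limma adjusted p = 0.00126). Another row with the name IGF2 and the overlapping INS-IGF2 were at 0, so the assignment of reads at this locus is uncertain.

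Most tested genes of the heparan sulfate list were lower. It held 21 genes, which were glypicans, syndecans, enzymes of the chain, and FURIN, NOTUM and CD81. Of these, 16 were tested, with 11 lower, 4 higher and 1 not passing, and a median log2 change of -0.63. As shares, 68.75% were lower and 25% higher, against 39.0% and 26.7% of all genes tested. SDC4, a syndecan at 199.99 to 208 FPKM in sh-NC and 79.1 to 83.5 FPKM in sh-CLGN, fell by 1.31 on the log2 scale (limma adjusted p = 1.05e-06). FURIN, the protease that cleaves GPC3, fell by 1.25. Among the enzymes that build or sulfate the chain, HS6ST1 fell by 1.16, NDST1 by 1.07 and EXTL3 by 1.06. GPC4, another glypican, was at 0.0781 to 0.116 FPKM in sh-NC and higher in sh-CLGN, at 1.23 to 1.37 FPKM (log2 change 1.07, limma adjusted p = 4.49e-05), and passed the filter only through sh-CLGN. Also higher were the syndecan SDC2 by 0.75 (limma adjusted p = 2.08e-05), the glypican GPC6 by 0.71 (limma adjusted p = 5.80e-05) and HS2ST1 by 0.23 (limma adjusted p = 0.0277). With read totals 10 of the 16 were lower and 4 higher.

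Notch pathway genes around DLK1 were lower or did not pass in limma. Of 19 listed, 14 were tested, and 8 were lower, 0 higher and 6 did not pass. The share lower was 57.1%, where 39.0% of all genes tested were lower and 26.7% higher. At an unadjusted p under 0.05, limma also gave 0 higher, and voom on the recovered reads called 1, RBPJ, the DNA-binding factor of the pathway (0.20, adjusted p = 0.0410). Ligands below the filter went both ways in voom. DLL4 was higher, with 27 to 53 reads in sh-NC libraries and 57 to 93 in sh-CLGN libraries (voom adjusted p = 0.0219), though its FPKM overlapped between groups. DLL1, with at most 5 reads, was also higher (voom adjusted p = 0.0352). JAG2 was lower, with 51 to 79 reads in sh-NC libraries and 35 to 52 in sh-CLGN libraries (voom log2 change -0.77, adjusted p = 0.00668). Its FPKM did not overlap. JAG1, a Notch ligand, was at 61.6 to 68.5 FPKM in sh-NC and lower in sh-CLGN, at 23.6 to 25.5 FPKM (log2 change -1.37, limma adjusted p = 2.00e-06). HES1, a direct target gene of Notch, fell by 1.15 and MAML1, a coactivator, by 0.77. With read totals 5 were lower and 3 higher.

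Imprinted genes other than DLK1 and PEG10 went both ways, with 3 higher, 3 lower and 4 not passing among 10 tested of 23. That is 30% each way, against 26.7% higher and 39.0% lower over all genes tested. PLAGL1, a zinc finger factor, was higher by 0.66 on the log2 scale (limma adjusted p = 6.71e-05). MEST fell by 1.09, and IGF2R, which clears IGF2 from the cell surface, by 0.75. H19 and SNRPN had 0 reads in every library.

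SALL4 partners in chromatin were mostly lower. Of 27 genes listed for the SALL family, pluripotency and the NuRD complex, 23 were tested, with 15 lower, 4 higher and 4 not passing (median -0.43). Thus 65.2% were lower and 17.4% higher, against 39.0% and 26.7% of all genes tested. RBBP7, a histone-binding subunit of NuRD, fell by 0.70 (limma adjusted p = 1.23e-05), GATAD2A, a further subunit, by 0.67 and HDAC1, its deacetylase, by 0.56. With read totals 12 were lower and 6 higher.

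Other fetal and progenitor genes of the liver were divided, with 5 higher and 5 lower of 12 tested among 14. That is 41.7% each way, against 26.7% higher and 39.0% lower over all genes tested. AFP, the fetal counterpart of albumin, was at 2598 to 2790.5 FPKM in sh-NC and 3664 to 3943 FPKM in sh-CLGN (log2 change 0.50, limma adjusted p = 0.000230). PROM1, which encodes the progenitor marker CD133, rose by 1.10 (limma adjusted p = 2.88e-06). SOX9, a factor of bile duct and progenitor cells, was at 91.5 to 95.4 FPKM in sh-NC and lower in sh-CLGN, at 36.3 to 37.5 FPKM (log2 change -1.32, limma adjusted p = 1.00e-06), and SOX4 fell by 0.59. Over all 8 lists 26 of 121 tested genes were higher and 64 lower, or 37 and 52 with read totals. On the deposited scale that is 21.5% and 52.9%, against 26.7% and 39.0% of all genes tested. With read totals 4956 of all 13074 genes were higher and 3421 lower.

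**Figure D4:**
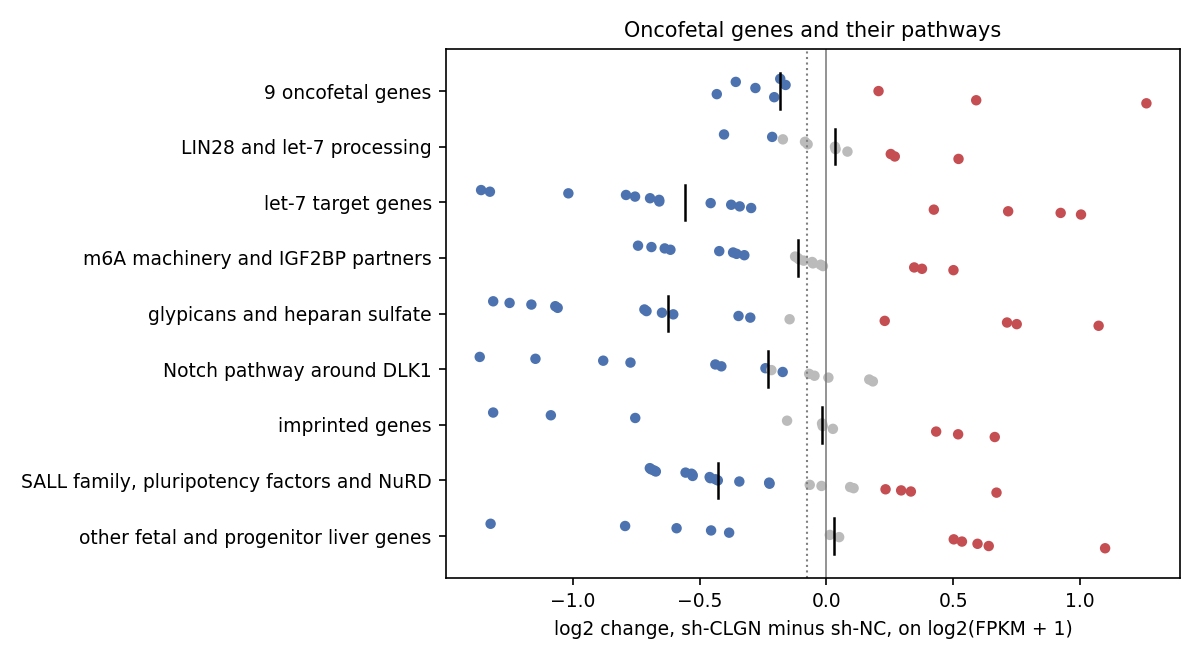
Log2 change on log2(FPKM + 1), sh-CLGN minus sh-NC, of the 9 oncofetal genes and of the genes in 8 related lists. Each point is a gene, red where higher and blue where lower at an adjusted p of at most 0.05, grey otherwise; black bars are medians and the dotted line is the median of all tested genes (-0.08). The medians of let-7 targets (-0.56), heparan sulfate genes (-0.63) and SALL4 partners (-0.43) lie further left than that of the 9 genes (-0.18).

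For each member the gene with the most similar pattern was found by Pearson correlation of log2(FPKM + 1) over the 6 libraries. These were NOMO3 for GPC3 (r = 0.999), PYROXD1 for PEG10 (0.998), CBL for IGF2BP1 (0.995), MTA3 for IGF2BP2 (0.999), BDP1 for IGF2BP3 (0.995), PIGF for LIN28B (0.998), POU2F1 for HMGA2 (0.998), GDA for SALL4 (0.998) and TMEM199 for DLK1 (0.999). The libraries form 2 groups, and any gene that differs between them will correlate with the others. For DLK1 1600 genes reached r = 0.95 and for IGF2BP1 81, so the choice of 1 name among many rests on small differences in r.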

How the data were processed

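RNA from 6 Hep-G2 libraries was measured, and the authors deposited 1 table of FPKM per gene and library with gene lengths. Per the submitters' processing notes HISAT2 2.0.5, featureCounts and GRCh38 were used; strandedness and handling of shared reads are not given in the sources used here. Positions equalled GENCODE 29 for all 58735 genes. KD columns were matched to sh-CLGN and NC columns to sh-NC by name. FPKM times length gave whole reads, within 0.01 read, for all values, and 1 read on 1 kb was worth 0.0589 to 0.0717 FPKM. Floors of 3 reads cover counting error only.

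Genes were compared with limma 3.58.1 in R 4.3.3 (eBayes with trend, two-sided, Benjamini-Hochberg adjustment over 13074 genes, no covariate), which was tested on simulated data. The members, lists, markers, shares and alternatives were chosen with earlier results of these data known. Named genes were the 9 members, CLGN, the most similar gene of each member, and neighbours. In each list they were the 3 with the smallest adjusted p and those past both thresholds. TRIM71, LIN28A, AFP, RBPJ, DLL1, DLL4, SALL1 to SALL3 and the genes at or near 0 were added after their values were seen. So were JAG2, METTL3, METTL14, GPC2, GPC6, SDC2 and HS2ST1. Not every gene that met the rule is reported. Alternatives changed the pseudocount (0.1), the filter (none, or a mean of 0.1 FPKM) and the scaling (median-ratio, TPM, quantile, read totals), or used no trend, robust eBayes, voom on genes with at least 10 reads, GC correction (lowess span 0.3), a replicate block and leaving out each library. Voom with read totals was added after seeing the data. Sequences came from GENCODE 29 transcripts and RefSeq. Python 3.11.15, numpy 2.4.6, pandas 2.3.3 and matplotlib 3.10.9 were used.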

Additional observations from a re-analysis of the deposited data

Results flagged for a closer look

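Among the genes of the lists and the neighbours of members that were below the expression filter, 12 had at least 10 reads in each sh-CLGN library, and 8 of them were higher in every sh-CLGN library than in every sh-NC library. Of all 3027 genes below the filter with that many reads, 52.5% did the same. This rule looked only for rises, and its read floor was set only in sh-CLGN, where such genes are high. Falls were not flagged. JAG2 had means of 0.394 FPKM in sh-CLGN and 0.692 in sh-NC, without overlap (voom adjusted p = 0.00668). GPC2 stood at 0.605 and 1.01 FPKM with overlapping libraries (voom adjusted p = 0.0184). GPC1, a glypican, had a mean of 0.671 FPKM in sh-CLGN and 0.219 in sh-NC, and KCNQ1OT1, an imprinted antisense RNA, 0.495 and 0.169. MIR99AHG, the host of let-7c, stood at 0.623 and 0.266 FPKM, from 109 to 122 and 39 to 51 reads. AC090673.1, antisense to HMGA2, stood at 0.248 and 0.0423 FPKM, and ZBTB20, a repressor of AFP, at 0.583 and 0.331. MATR3, with 2 rows of that name and therefore uncertain, stood at 0.391 and 0.141. GPC5, at 0.319 and 0.223 FPKM, and NNAT, at 0.835 and 0.473, did not pass voom on the recovered reads (limma adjusted p = 0.248 and 0.0861).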

How the results depend on the processing

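DLK1 (log2 change 1.01 to 3.07), SALL4 (0.52 to 1.01) and CLGN (-1.65 to -1.12) passed under all 13 alternatives and without each library in turn. The 6 members that were lower became 3 with TPM, 2 with read totals, 2 with voom and read totals, and 0 with quantile normalization, where limma gave 0 at an unadjusted p under 0.05 as well and voom on deposited sizes 6. GPC3 turned to 0.12 (quantile), 0.0126 (read totals) and 0.0126 (voom with read totals), and IGF2BP1 to 0.13, 0.0307 and 0.0302. Over all genes the 3496 that were higher became 5754 with voom and 7862 with voom and read totals (5593 and 3784 were lower), and the list genes that were higher went from 26 to 40 with the latter; voom tested more genes. TUT4 turned to -0.0021 after GC correction, which was the 1 reversal among 570 values of 30 named list genes, and KHSRP did not pass with quantile normalization (-0.08). The causes of the other changes were not tested. Without 1 library, members higher numbered 2 to 3 and members lower 4 to 6. Replicate numbers did not pair the libraries (correlations of deviations -0.018, -0.046 and -0.146). A fit with the replicate block gave 3281 genes higher and 4757 lower, 3 and 6 members and 25 and 63 list genes, and changed no call of a member. With 3 libraries a group, leaving out 1 library ended calls only among the members IGF2BP1, IGF2BP3 and HMGA2, whose log2 changes were at most 0.21 in size.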
